A study of Homo sapiens with 4 samples.

Results

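The genes described here were 10 transcription factor genes of squamous and nasopharyngeal epithelium, *TP63*, *SOX2*, *KLF4*, *KLF5*, *GRHL2*, *GRHL3*, *TFAP2A*, *TFAP2C*, *ZNF750* and *OVOL1*, and the measurement was the binding of Flag-tagged FLI1 around them. They were chosen by name, as 10 of the 20046 protein-coding genes of GENCODE 44, and all peaks within 3 kb of an annotated transcription start site (TSS), in the gene body or within 100 kb of the gene were taken. This gave 64 of 30819 peaks in the control library and 91 of 39654 peaks in the IFN-γ library. The cells were HK1, a long-established line of nasopharyngeal carcinoma. They had been made to overexpress Flag-FLI1 and received either PBS (the control) or IFN-γ for 24 h. Both groups carried the overexpressed protein, and the antibody was directed against its tag, so FLI1 made from the cells' own gene was not captured. There was 1 Flag library per treatment and therefore no replicate, so the treatment was not tested, and its effect cannot be told apart from any other difference between the libraries.

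TP63 is the factor that sets up and maintains stratified epithelium, and its N-terminally truncated form, ΔNp63, is the one that basal cells and squamous tumors chiefly use. SOX2 works beside TP63 in squamous carcinoma, KLF4 and KLF5 serve the differentiating and the proliferating layers, the grainyhead factors GRHL2 and GRHL3 act on cell junctions and the skin barrier, and TFAP2A and TFAP2C are AP-2 factors of surface ectoderm. ZNF750 and OVOL1 act late in epidermal differentiation, ZNF750 downstream of TP63. FLI1 is an ETS factor, which binds a GGAA core and is best known in blood and endothelial cells. The peak lists hold no expression values, so neither the levels of these genes nor the epithelial identity of the cells could be checked.

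The authors' lists give a fold enrichment over the local background, a −log10 p and a −log10 q at the summit of each peak, and the whole number of fragments at each summit (the pileup) was solved from the first pair of values. The median summit held 16 fragments in the control library and 22 fragments after IFN-γ. The lowest background was 1.46 times higher in the IFN-γ library, and this was taken as the relative depth. Ranks are by −log10 p within a library, with 1 the highest. A gene without a peak had no signal over the calling cutoff, and weaker binding there cannot be told from none. All intervals are at 95%. Those of single ratios are exact binomial intervals and cover counting error only. Those of shares are Clopper-Pearson intervals, which treat the peaks as independent draws. The interval of a median ratio is taken from the ranked ratios of the pairs, also as if these were independent. None of them covers variation between cultures.

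The promoter summits are shown because they give the sequence under the highest-ranked peaks at the genes' own promoters. For each gene with a promoter peak, the 151 bases around the summit with the highest −log10 p are given on the plus strand of GRCh38, with every GGAA or TTCC core, every FLI1 motif (CAGGAAGT or CCGGAAGT, on either strand) and every AP-1 motif (TGANTCA) in capitals.
GRHL3 promoter, control summit, chr1:24321888-24322038 (+): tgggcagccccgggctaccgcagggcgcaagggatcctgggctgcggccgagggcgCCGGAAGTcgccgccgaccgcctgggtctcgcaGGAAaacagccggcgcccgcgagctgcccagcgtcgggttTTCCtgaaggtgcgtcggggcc
TFAP2A promoter, control summit, chr6:10419086-10419236 (+): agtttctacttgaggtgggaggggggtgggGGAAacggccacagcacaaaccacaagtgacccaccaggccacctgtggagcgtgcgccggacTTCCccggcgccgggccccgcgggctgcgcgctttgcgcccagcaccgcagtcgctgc
KLF4 promoter, control summit, chr9:107489886-107490036 (+): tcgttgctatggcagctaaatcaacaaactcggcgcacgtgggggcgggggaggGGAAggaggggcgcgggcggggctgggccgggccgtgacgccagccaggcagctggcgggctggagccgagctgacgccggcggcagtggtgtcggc
KLF5 promoter, control summit, chr13:73059522-73059672 (+): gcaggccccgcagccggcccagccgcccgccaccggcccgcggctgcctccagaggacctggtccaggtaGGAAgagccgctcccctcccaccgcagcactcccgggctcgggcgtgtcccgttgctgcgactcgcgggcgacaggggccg
TFAP2C promoter, control summit, chr20:56629553-56629703 (+): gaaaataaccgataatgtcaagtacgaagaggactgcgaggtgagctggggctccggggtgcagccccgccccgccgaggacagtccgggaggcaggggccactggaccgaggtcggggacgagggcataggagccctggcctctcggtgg
OVOL1 promoter, control summit, chr11:65791753-65791903 (+): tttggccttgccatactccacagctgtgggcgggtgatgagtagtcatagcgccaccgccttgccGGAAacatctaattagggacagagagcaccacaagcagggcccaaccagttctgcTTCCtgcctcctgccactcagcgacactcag
A full FLI1 motif stood in 1 of these 6 windows, that of *GRHL3*. The *TFAP2C* window held 0 cores, and the windows of *KLF4* and *KLF5* held 1 each.

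The strongest summits away from coding promoters are shown for the contrast between single sites and repeats. The capitals mark the same motifs.
KLF5 flank, IFN-γ summit, chr13:73090560-73090710 (+): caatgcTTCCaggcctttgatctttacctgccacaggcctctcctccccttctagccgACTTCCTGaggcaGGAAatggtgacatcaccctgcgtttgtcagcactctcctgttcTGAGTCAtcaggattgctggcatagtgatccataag
TP63 flank, IFN-γ summit, chr3:189577681-189577831 (+): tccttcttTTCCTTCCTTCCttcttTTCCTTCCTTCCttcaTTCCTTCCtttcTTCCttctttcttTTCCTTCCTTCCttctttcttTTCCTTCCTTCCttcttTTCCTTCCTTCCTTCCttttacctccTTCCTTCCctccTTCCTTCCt
TFAP2A flank, IFN-γ summit, chr6:10462015-10462165 (+): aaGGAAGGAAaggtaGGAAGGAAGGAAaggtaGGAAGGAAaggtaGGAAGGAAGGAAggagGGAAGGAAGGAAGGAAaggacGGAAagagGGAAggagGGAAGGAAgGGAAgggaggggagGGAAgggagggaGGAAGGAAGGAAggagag
TP63 intron 1, IFN-γ summit, chr3:189686068-189686218 (+): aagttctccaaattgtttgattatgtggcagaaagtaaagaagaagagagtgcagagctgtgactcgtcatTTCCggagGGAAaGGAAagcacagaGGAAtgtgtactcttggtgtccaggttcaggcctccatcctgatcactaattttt
The *KLF5* window held 3 cores, 1 of them within a FLI1 motif, and an AP-1 motif. The *TP63* window upstream of the gene and the *TFAP2A* window each held 23 cores in repeats of GGAA or its complement, where short reads are hard to place, and the part of this in their pileups was not tested. The *TP63* window in intron 1 held 4 cores and no repeat.

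Promoter binding was present at 6 of the 10 genes in the control library, *KLF4*, *KLF5*, *GRHL3*, *TFAP2A*, *TFAP2C* and *OVOL1*, against 61.9% of all protein-coding genes. In the IFN-γ library it was present at 5 of them, the same genes without *OVOL1*, against 59.7% of all genes. In both libraries it was present at 5 genes, against 56.0% of all genes. These counts were close to the background. All 10 genes had a peak somewhere in their window in each library, as did 91.2% (control) and 93.6% (IFN-γ) of all protein-coding genes. The best promoter peaks of the genes ranked from 1786 to 24004 in the control library, with a median of 9845, and the median over all genes with a promoter peak was 7608. In the IFN-γ library they ranked from 4937 to 31231 with a median of 13520, against 11401 over all such genes. The number of peaks per window had a median of 4.5 (2 to 12) in the control library and 6.5 (4 to 17) after IFN-γ, against 5 and 6 over all genes.

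**Figure D1:**
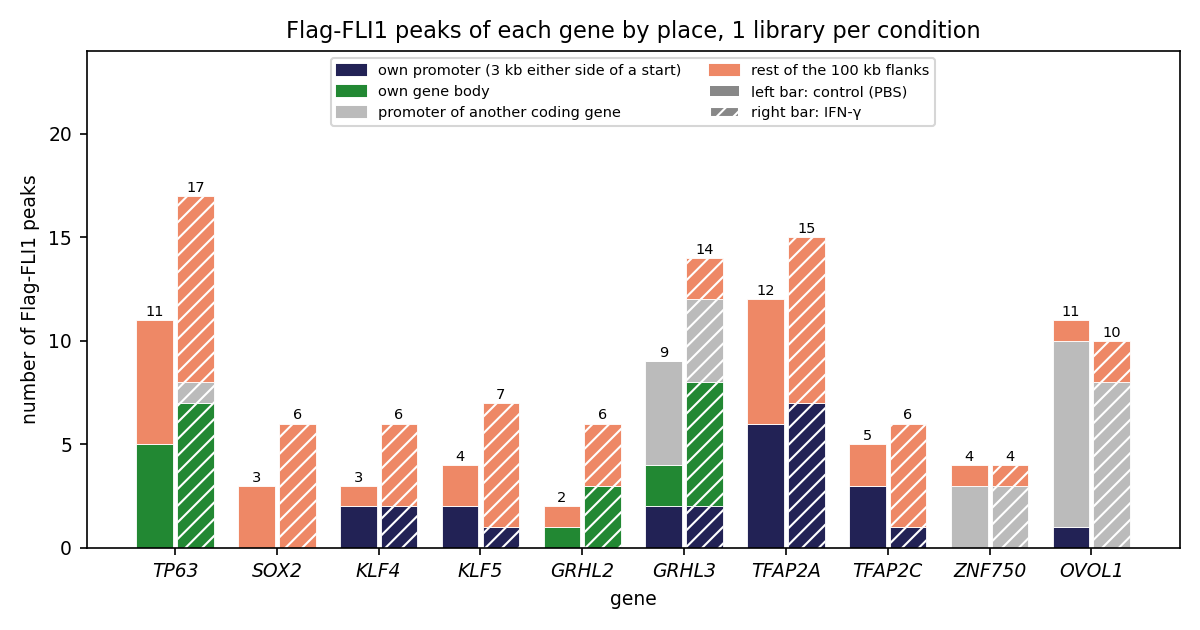
Number of Flag-FLI1 peaks (y axis) of each of the 10 genes (x axis) by place, with the control library on the left of each pair of bars and the IFN-γ library, hatched, on the right; totals are above the bars and there is 1 library per condition. *TFAP2A* had the most peaks in the control library, 12, and *TP63* in the IFN-γ library, 17, and *TP63*, *SOX2*, *GRHL2* and *ZNF750* had no peak at their own promoter.

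*TP63* (ENSG00000073282, chr3:189631389-189897276, plus strand) had 8 annotated TSSs in 2 groups, the upstream group of the full-length TAp63 form and an internal group of the ΔNp63 form. No peak of either library lay within 3 kb of any of them. The summit nearest to a *TP63* TSS was 16.0 kb away in the control library and 16.6 kb away in the IFN-γ library, both by the internal group. Instead, *TP63* had 5 control peaks and 7 IFN-γ peaks in its introns, and 6 and 10 peaks in the flanks. With 17 peaks in the IFN-γ library it was among the 4.13% of coding genes with that many or more. Its window of 466 kb was long, and per megabase 25.9% of genes had as many peaks.

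The strongest *TP63* peak lay 53.6 kb upstream of the MANE Select start, at chr3:189577226-189578232 in the IFN-γ library, where the GGAA repeat shown above is found. Its summit held 21 fragments in the control library (fold 8.22, rank 11030) and 82 fragments after IFN-γ (fold 28.3, rank 1618). The depth-scaled ratio of IFN-γ to control was 2.68 (1.64 to 4.56), the highest of all shared peaks of the 10 genes, and 3.17% of all shared pairs outside promoters had a ratio as high.

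In the first intron, a pair of peaks lay 41.3 kb and 54.8 kb downstream of that start. The first one, over a run of 10 GGAA units, had 18 fragments in the control library and 34 after IFN-γ, a ratio of 1.30 (0.712 to 2.44). The second, with no repeat, had 21 and 62 fragments, a ratio of 2.03 (1.22 to 3.50). Past the end of the gene, 4 peaks between 277 kb and 306 kb from the start were shared by the libraries, all of them nearer to a start of the next gene, *P3H2*, than to one of *TP63*. The first of these, at 277 kb, went from 18 to 56 fragments with a ratio of 2.14 (1.24 to 3.86). The *TP63* peak with the lowest ratio lay in intron 4, with 17 fragments in the control library and 16 after IFN-γ, a ratio of 0.646 (0.306 to 1.36). Of the 9 shared *TP63* peaks, 8 had more fragments after depth scaling in the IFN-γ library, where 69.7% of all shared pairs outside promoters did.

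*SOX2* (ENSG00000181449, chr3:181711925-181714436, plus strand), a gene of a single exon, had no peak within 38 kb. The nearest summits were 38.2 kb upstream in the control library and 38.3 kb upstream in the IFN-γ library. All 3 control peaks and all 6 IFN-γ peaks lay in the long non-coding gene *SOX2-OT*, in which *SOX2* itself is embedded. The 3 shared peaks stood at 38.2 kb, 60.9 kb and 87.7 kb upstream, with 17, 10 and 9 fragments in the control library and 25, 22 and 13 after IFN-γ. Their ratios were 1.01 (0.524 to 1.99), 1.51 (0.687 to 3.57) and 0.992 (0.392 to 2.63), so none differed from equal depth beyond counting error. The sequence under the nearest summit contained GGAA runs of 7 units at the control summit and 13 units at the IFN-γ summit, and that at 60.9 kb a run of 4 units. The strongest *SOX2* peak of the IFN-γ library, 89.4 kb upstream with 28 fragments (fold 8.53), had no control counterpart and held an AP-1 motif and no repeat.

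*KLF4* (ENSG00000136826, chr9:107484852-107490482, minus strand) carried 2 promoter peaks in each library. The stronger one had its summit 192 bp upstream of the MANE start in the control library, with 31 fragments (fold 12.9, rank 5376), and 30 fragments after IFN-γ (fold 8.09, rank 13520). The ratio was 0.665 (0.389 to 1.14). The second, inside the gene, had 14 fragments in each library, a ratio of 0.687 (0.304 to 1.55), with summits 310 bp apart. Both promoter ratios were below 1 with intervals that span it. A peak 58.8 kb upstream of the start had 22 and 49 fragments and a ratio of 1.53 (0.908 to 2.66), an interval that also spans 1. The IFN-γ library added 3 flank peaks of 13 to 22 fragments.

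*KLF5* (ENSG00000102554, chr13:73054976-73077541, plus strand) had the highest peak of all 10 windows after IFN-γ, and it was not at the promoter. In the control library it came second to the *FIBP* promoter peak in the *OVOL1* window. The peak lay at chr13:73090380-73090811 in the control library and at chr13:73090095-73091053 in the IFN-γ library, in intergenic sequence past the 3′ end of the gene and 31.6 kb from the MANE start, and the nearest coding TSS, 15.6 kb away, was that of a *KLF5* transcript. Its summit, where the FLI1 motif and the AP-1 motif printed above stand, held 108 fragments in the control library (fold 20.1, rank 749) and 363 fragments after IFN-γ (fold 51.9, rank 33). The summits of the libraries were 14 bp apart. The ratio was 2.31 (1.86 to 2.89), and 6.76% of shared pairs outside promoters had one as high. In the IFN-γ library 173 coding genes, or 0.863%, had a peak of that rank or better in their window, against 17.0% for the control library.

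By contrast, the peaks at the *KLF5* promoter ranked far below this flank peak. The control library had 2, with 20 fragments (fold 6.52, rank 14314) and 14 fragments (fold 4.63, rank 22669), and 1 wide IFN-γ peak covered both with 22 fragments (fold 3.64, rank 31231). The ratio to the stronger control peak was 0.755 (0.393 to 1.46), but the 2 summits were 919 bp apart, so it compares different positions. A further shared peak 27.2 kb upstream, with 12 and 18 fragments, was the only one of the 10 genes with a match to the p63 motif (a pair of CATG cores 6 bases apart), which 0.354% of all control and 0.371% of all IFN-γ peaks held. Of the 4 remaining flank peaks of the IFN-γ library, the highest had 28 fragments.

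**Figure D2:**
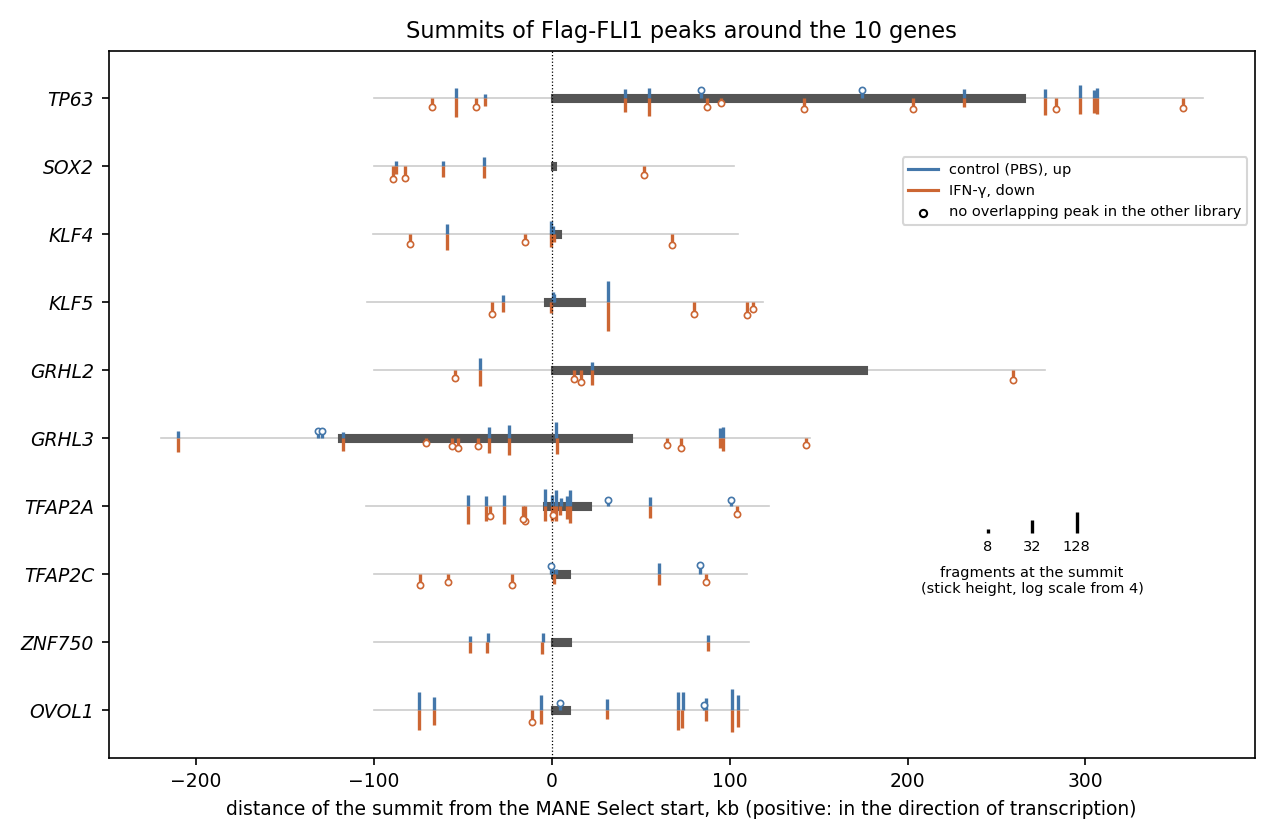
Summits of the Flag-FLI1 peaks by distance in kb from the MANE Select start of each gene (x axis, positive in the direction of transcription), with the control library drawn upward, the IFN-γ library downward and the stick height giving fragments at the summit on a log scale; dark bars are the genes, thin lines the 100 kb flanks, and open circles mark peaks without an overlapping peak in the other library. The tallest stick, 363 fragments, stands 31.6 kb from the *KLF5* start, and the *TP63* and *SOX2* starts have none near them.

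*TFAP2A* (ENSG00000137203, chr6:10393186-10419659, minus strand) had the most promoter peaks, 6 in the control library and 7 after IFN-γ, spread over 18 annotated TSSs. As many were found at 61 coding genes (0.304%) in the control library and 32 (0.160%) after IFN-γ. A median coding gene had 5 TSSs and 1 promoter peak in either library. The strongest control peak of the gene, 4.09 kb upstream of the MANE start at a group of upstream starts, held 60 fragments (fold 16.1, rank 2219) in the control library and 44 (fold 9.26, rank 8855) after IFN-γ. Its ratio of 0.504 (0.333 to 0.756) was the lowest of all shared peaks of the 10 genes.

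The next *TFAP2A* promoter peak, 2.46 kb inside the gene, had 51 and 42 fragments and a ratio of 0.566 (0.367 to 0.868). These were the only own-promoter peaks of the 10 genes whose interval lay below the median of all promoter pairs. The peak at internal starts 10.2 kb inside the gene had 49 and 54 fragments and a ratio of 0.757 (0.505 to 1.14), with summits 287 bp apart. A pair of weaker promoter peaks, 8.36 kb and 5.21 kb inside the gene, had 19 and 15 fragments in the control library and 32 and 16 after IFN-γ, with ratios of 1.16 (0.636 to 2.16) and 0.733 (0.339 to 1.59). At the latter of them the summits of the libraries were 765 bp apart. The peak at the MANE start itself had 22 and 39 fragments, with a ratio of 1.22 (0.704 to 2.16) by pileup and 0.636 by the deposited folds. Of the 6 shared promoter peaks of *TFAP2A*, 4 thus had ratios below 1 and 2 above it, where 37.5% of all promoter pairs were above 1. The background at the MANE start was 8.14 fragments in the IFN-γ library and 2.35 in the control library.

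Upstream of *TFAP2A*, in and beyond the non-coding gene *MIR5689HG*, the order of the libraries was the other way round. A peak 26.8 kb upstream of the MANE start, with an AP-1 motif, had 24 fragments in the control library and 70 after IFN-γ, a ratio of 2.00 (1.24 to 3.33). The peak over the GGAA repeat 47.0 kb upstream had 22 and 69 fragments (folds 8.28 and 17.6), a ratio of 2.15 (1.32 to 3.66), and its nearest coding TSS was that of *GCNT2*. Another shared peak 37.0 kb upstream had 19 and 40 fragments, a ratio of 1.45 (0.818 to 2.64). A peak of 44 fragments (fold 9.91) 15.2 kb upstream, within *LINC00518* and with a FLI1 motif, was called in the IFN-γ library alone. Downstream of the gene, 55.2 kb past the MANE start, a shared peak over GGAA runs of 5 and 7 units had 17 and 25 fragments, a ratio of 1.01 (0.524 to 1.99).

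*TFAP2C* (ENSG00000087510, chr20:56629306-56639283, plus strand) was bound weakly. Its promoter had 3 control peaks of 9 to 21 fragments (folds 4.14 to 5.06) and 1 IFN-γ peak of 20 fragments (fold 5.03, rank 25409). The ratio at the peak closest to the start was 0.654 (0.336 to 1.27), with the summits of the libraries 736 bp apart. A shared flank peak 60.2 kb downstream had 22 fragments in each library, a ratio of 0.687 (0.363 to 1.30).

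*GRHL3* (ENSG00000158055, chr1:24199558-24364482, plus strand) had the strongest promoter peak of the 10 genes in both libraries. It lay at chr1:24321710-24322916 in the control library, in intron 1 and 2.61 kb downstream of the MANE start, with its summit 62 bp from the TSS of the antisense gene *GRHL3-AS1*. The lists carry no strand, so a peak between this pair of genes belongs to neither alone. It had 50 fragments in the control library (fold 24.8, rank 1786) and 50 after IFN-γ (fold 16.3, rank 4937), a ratio of 0.687 (0.455 to 1.04). The window around it had a GC content of 75.6%, and among the own-promoter peaks of the 10 genes a full FLI1 motif was found at the *GRHL3* peaks alone.

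Inside *GRHL3*, between the far upstream start of a long transcript and the MANE start, a pair of shared intron peaks stood 35.4 kb and 24.3 kb upstream of the latter. They had 24 and 34 fragments in the control library and 38 and 55 after IFN-γ, with ratios of 1.09 (0.636 to 1.89) and 1.11 (0.712 to 1.76). By the deposited folds these ratios were 0.872 and 1.12. The far upstream start had a small peak with a FLI1 motif, of 10 and 28 fragments, whose ratio of 1.92 (0.907 to 4.44) was the highest of the own-promoter pairs. The IFN-γ library held 4 more intron peaks of 8 to 19 fragments.

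*GRHL2* (ENSG00000083307, chr8:101492439-101669726, plus strand) had no promoter peak and the fewest peaks of the 10 genes in the control library, 2 in a window of 377 kb. The intron 1 peak, 22.5 kb downstream of the start and over a run of 5 GGAA units, had 16 and 38 fragments, a ratio of 1.63 (0.888 to 3.13). A peak 40.4 kb upstream, at the start of the non-coding gene ENSG00000254084, had 27 and 46 fragments, a ratio of 1.17 (0.712 to 1.96). By the deposited folds both ratios were below 1, at 0.885 for the intron peak and 0.836 for the upstream peak. The IFN-γ library alone had another intron 1 peak of 24 fragments 16.6 kb from the start, over a run of 12 GGAA units.

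*ZNF750* (ENSG00000141579, chr17:82829434-82840022, minus strand) had 4 peaks in each library, all of them shared and all at or within *TBCD*, the gene that spans its surroundings. The nearest stood 5.18 kb upstream of the *ZNF750* start in the control library, with 17 fragments (fold 6.73), and 5.30 kb upstream in the IFN-γ library, with 26 (fold 8.64), a ratio of 1.05 (0.549 to 2.06). It lay 382 bp and 264 bp from an internal TSS of *TBCD*.

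*OVOL1* (ENSG00000172818, chr11:65787063-65797214, plus strand) was the only gene with a promoter peak in 1 library and none in the other. The peak lay in intron 1 with 13 fragments in the control library (fold 4.65, rank 24004), and it lay within 3 kb of a TSS other than the MANE start. Most of the 11 control and 10 IFN-γ peaks of the window were at promoters of neighbours, 9 and 8 of them. The highest, at the start of *FIBP* 101 kb away, had 109 and 129 fragments (ranks 414 and 1033), followed by those of *CFL1* with 77 and 97 fragments and *KAT5* with 77 and 89. All 9 shared peaks of this window had ratios below 1, from 0.508 to 0.916, and 8 of them were at promoters, where 37.5% of all shared pairs had a ratio above 1.

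Overlap between the libraries was near that of the whole lists. Of the 64 control peaks, 54 (84.4%, 73.1% to 92.2%) had an overlapping IFN-γ peak, against 77.5% of all control peaks, and of the 91 IFN-γ peaks 52 (57.1%, 46.3% to 67.5%) overlapped a control peak, against 61.0% of all IFN-γ peaks. Of the 39 IFN-γ peaks without a control counterpart, 35 (89.7%, 75.8% to 97.1%) lay outside promoters, an interval above the 72.1% of all such IFN-γ peaks. Shared or not, 57 of the genes' 91 IFN-γ peaks lay outside promoters, against 21027 of 39654 in the whole list. The part of this in the share of 89.7% was not tested. Outside promoters 22 of 57 IFN-γ peaks (38.6%, 26.0% to 52.4%) were shared, against 47.0% of all such peaks. The IFN-γ library was the deeper one, so a peak called in it alone does not show a gain.

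The 52 pairs of shared peaks had a median ratio of 1.01 (0.859 to 1.16), and all 23495 pairs had 1.01. The ratios divided by place in these genes as in the genome. At promoters the median was 0.803 over 30 pairs and 0.886 over all 13688 pairs, and outside promoters it was 1.21 over 22 pairs and 1.24 over all 9807 pairs. At the genes' own promoters 3 of 12 pairs were above 1, with a median of 0.710, against 37.5% and 0.886 over all promoter pairs. The summits of the 12 own-promoter pairs lay from 13 bp to 919 bp apart, so some of the ratios compare different positions within overlapping peaks. The median GC content around the summits was 57.7% for all control peaks and 50.7% for all IFN-γ peaks, and its part in these ratios was not tested.

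Pairs whose interval lay off the median of their class were few. At promoters 4 of 30 pairs lay above it and 2 below it, against 11.2% and 6.27% of all promoter pairs. Outside promoters 3 of 22 pairs lay above it, namely those of *KLF5* at 31.6 kb and of *TP63* at 53.6 kb upstream and 277 kb downstream, and 1 lay below it, against 9.53% and 5.13% of all such pairs. The 4 at promoters were the upstream *TFAP2A* pairs at 26.8 kb and 47.0 kb, next to a microRNA gene and a pseudogene, the far upstream *GRHL3* start and the promoter of its neighbour *MYOM3*. The pairs below were both of *TFAP2A* at promoters and a peak 31.2 kb from the *OVOL1* start, with 23 and 17 fragments, outside them.

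**Figure D3:**
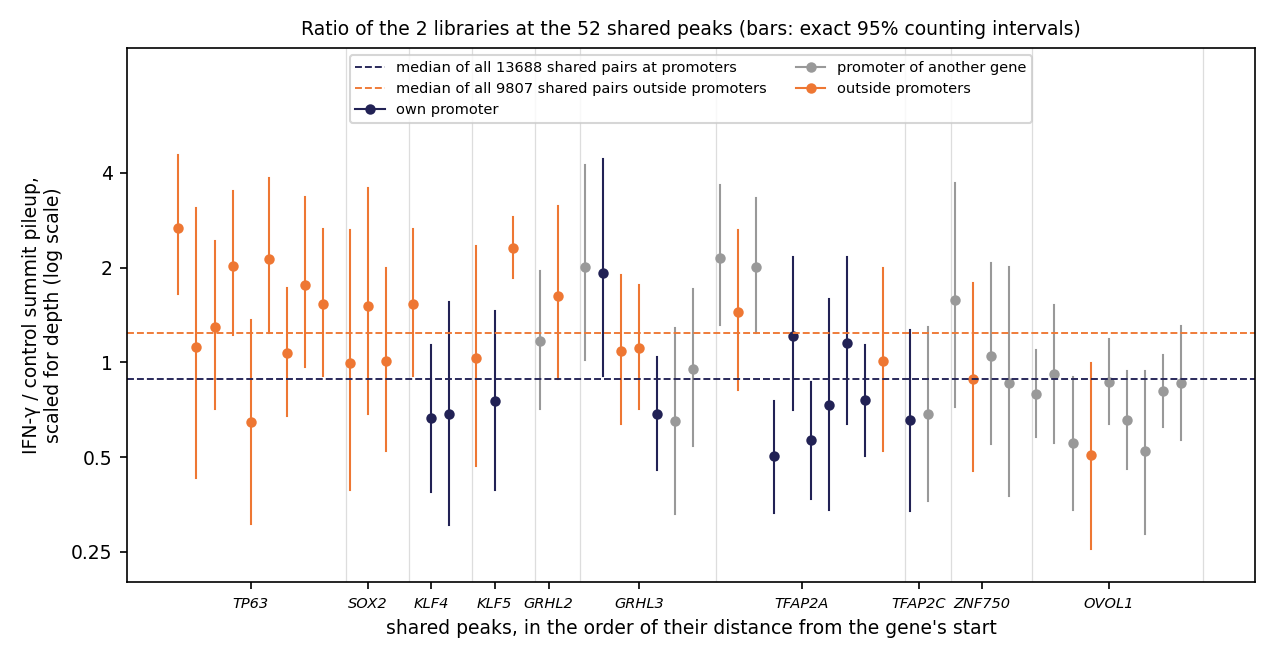
Depth-scaled ratio of IFN-γ to control fragments (y axis, log scale) at the 52 shared peaks, grouped by gene (x axis) and ordered by distance from the gene's start; bars are exact 95% counting intervals and dashed lines the medians of all shared pairs at and outside promoters. Own-promoter pairs lie mostly below 1, from 0.504 to 1.92, and of all shared promoter pairs 37.5% lie above 1. The highest ratios, 2.68 and 2.31, belong to peaks of *TP63* and *KLF5* outside promoters.

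For each motif the share over all peaks of a library lay within the interval of the genes' share. These intervals are wide, so this does not show that the frequencies were equal. The FLI1 motif and the tandem motif each contain the core, so these shares overlap. A GGAA core lay within 100 bp of the summit at 63 of 64 control peaks and 91 of 91 IFN-γ peaks, as at 96.1% and 97.9% of all peaks. The full FLI1 motif was present at 10.9% (4.51% to 21.2%) of the genes' control peaks against 12.8% of all, and at 9.89% (4.62% to 17.9%) of their IFN-γ peaks against 13.5%. In flanking windows centred 1 kb to the left and right of each summit it was present at 1.56% for the control peaks and 0.549% for the IFN-γ peaks. The AP-1 motif TGANTCA was present at 15.6% (7.76% to 26.9%) and 27.5% (18.6% to 37.8%), against 17.7% and 22.1%. The AP-2 motif GCCNNNGGC, which TFAP2A and TFAP2C themselves bind, was present at 18.8% (10.1% to 30.5%) and 15.4% (8.67% to 24.5%), against 18.3% and 12.2%. The grainyhead motif AACCNGTT was found at 1 control peak, in *OVOL1* intron 1, and at 0 IFN-γ peaks, against 0.928% and 1.05% of all peaks. Tandem cores (GGAAGGAA) stood at 14.1% and 15.4% of the genes' peaks, against 14.2% and 19.3%. Runs of at least 4 GGAA units lay at 6 control peaks (9.38%) and 9 IFN-γ peaks (9.89%), against 6.94% and 10.8% of all peaks, all of them in the windows of *TP63*, *SOX2*, *GRHL2* and *TFAP2A*.

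**Figure D4:**
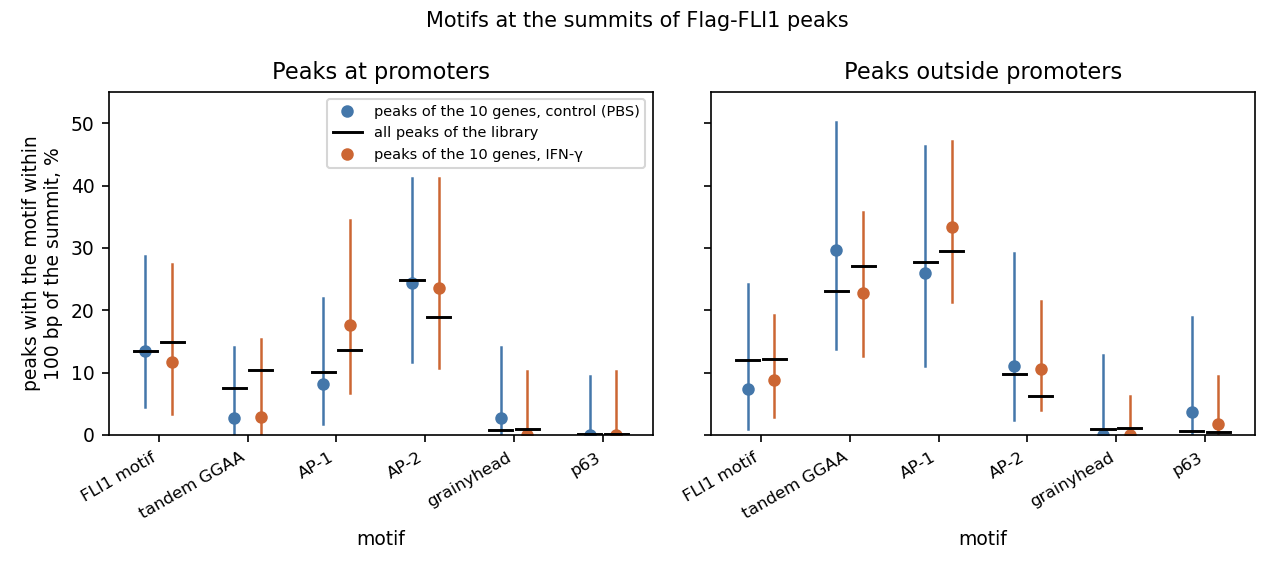
Share of peaks with each motif within 100 bp of the summit (y axis, percent) at promoters on the left and outside promoters on the right; points are the peaks of the 10 genes in the control and IFN-γ libraries with exact 95% intervals, and black lines are all peaks of the same library and class. Tandem GGAA cores lay at 29.6% and 22.8% of the genes' peaks outside promoters but at 2.70% and 2.94% of those at promoters, and the lines for all peaks fall within the intervals.

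The start regions themselves were read from RefSeq (GRCh38.p14, 250 bases before to 50 bases after each start), which held 6 of the 10 genes, namely *TP63*, *SOX2*, *KLF4*, *KLF5*, *GRHL3* and *TFAP2A*. The full FLI1 motif was absent from all 6, and it was present in 9.23% of the 15345 coding promoters. A GGAA core was present in all 6, as in 95.2% of them. No match says only that these letters are not in this window.

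The share with a promoter peak was also taken over lists of related genes. Among 12 close relatives of the factors, 7 had a promoter peak in each library, *KLF2* and *TP73* among them, and *TFAP2B*, *TFAP2D*, *TFAP2E*, *SOX21* and *OVOL3* had none. Among 22 genes of squamous adhesion and differentiation, 15 had one in the control library, 15 in the IFN-γ library and 14 in both. The best ranked in the control library were those of the desmosomal gene *DSP*, the integrin gene *ITGB4* and *PERP*. The keratin genes *KRT5* and *KRT14*, as well as *DSG3*, *PKP1*, *TGM1* and *IVL*, had none. Among 12 other epithelial factors, 9 had one in the control library and 7 after IFN-γ, with *HES1* highest at rank 529, and *FOXE1* and *MAF* were among those with none. All these shares are near those of all coding genes, and lists this short could not show a difference from them. The median best promoter rank in the control library was 12071, 15062 and 12780 in these lists, in the order given, against 7608 over all genes. In the IFN-γ library it was 16581, 19077 and 19518, against 11401. These ranks were not tested.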

How the data were processed

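Flag-FLI1 peaks of HK1 cells were read from 2 lists, 1 for PBS and 1 for IFN-γ, and the 2 input libraries are not analysed here. Per the methods and the submitters' processing notes, the authors used cutadapt 1.18 for trimming, Bowtie2 2.3.4.1 for alignment to GRCh38, Picard for duplicates and MACS2 2.1.2 for peaks, called in each library. A p-value cutoff of 0.01 is named, while the deposited lists hold q-values under 0.05; whether input entered the calling is not given in the sources used here. The deposited columns are the fold (a ratio, with 1 added to pileup and background), −log10 p, −log10 q, a display score that was not used, and the summit offset. Coordinates were made 1-based.

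Every peak had a whole pileup that gave back the deposited fold and −log10 p, with a largest relative error of 6.21e-06. Ratios of pileups were divided by 1.46. TSSs came from GENCODE 44, a promoter was 3 kb either side of any TSS, and shared peaks overlapped by at least 1 bp. Pairs were formed from the longest overlap downward, and each peak entered at most 1 pair. Motifs were searched on both strands. The steps were tested on simulated data. The 10 genes, the comparison lists and the rules were chosen with earlier results of these data known. Named were all 10 genes, the strongest peak of each class, every shared promoter peak and, for the lists, at most 3 genes and those without a peak, some of them not reported here. Alternatives were stricter q-values, lists of equal length, and other promoters, flanks, overlaps, scalings and windows. No test was run, because there was 1 library per condition. Software was pysam 0.24.0, pandas 2.3.3, matplotlib 3.10.9, scipy 1.17.1 and numpy 2.4.6 under Python 3.11.15.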

Additional observations from a re-analysis of the deposited data

How the results depend on the processing

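Of 156 values recomputed under the alternatives, 39 were ratios of single pairs under shorter lists, which cannot change by construction. Of the other 117, 105 stayed within 1.5 times of a count or within the interval of a value. Narrower flanks lower the peak counts by construction: 60 IFN-γ peaks remained with flanks of 50 kb, and 31 control and 39 IFN-γ peaks with flanks of 20 kb. With peaks counted where the nearest coding TSS was the gene's own, the control count was 40. The shared share of control peaks was 68.8% with an overlap of 50% of each peak and 60.9% with summits within 100 bp, and that of IFN-γ peaks was 42.9% with summits within 100 bp. With q-values under 1e-05 the grainyhead share of control peaks was 0%. With a window of 50 bp the p63 share was 0% in both libraries and the AP-2 share of IFN-γ peaks was 7.69%. Promoter peaks were found at 5 genes in the control library with q-values under 1e-05, with promoters of 1 kb and with 1 TSS per gene, *OVOL1* being lost each time, and at 4 genes in the IFN-γ library with lists of equal length, *KLF5* being lost. The median ratio stayed within its interval under both other scalings. No paired analysis was possible because there was a single Flag library for each treatment. The median control summit rests on 16 fragments, so the intervals of single ratios are wide, and variation between cultures was not measured.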

Other observations

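Among the related genes, some promoter peaks differed between the libraries by more than the depth, and they are given here as values chosen after they were seen. The best promoter peak of *EHF*, an ETS factor of epithelium, had 20 fragments (fold 8.64) in the control library and 79 (fold 23.0) after IFN-γ. At *CDH1*, the E-cadherin gene, the best promoter peaks had 6 fragments (fold 3.23) and 57 fragments (fold 12.7), but their summits lay 901 bp and 2243 bp from the nearest start and were different peaks. There is 1 library per condition, so neither difference was tested.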
